A study of Mus musculus with 12 samples.

Results

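Amino acid transporters were examined in the liver RNA of 12 adult male C57Bl/6J mice. The group holds 10 genes taken by symbol from the 36047 genes with a matched transcript: the sodium-coupled neutral transporters Slc38a2, Slc38a3 and Slc38a4, the cationic amino acid transporters Slc7a1 and Slc7a2, the large neutral transporter Slc7a5 with its heavy chain Slc3a2, the exchanger Slc1a4, the glycine transporter Slc6a9 and the facilitated transporter Slc43a1. Mice were fed for 7 days, 3 in each of 4 groups: regular-fat control (RF.Ctrl), regular-fat restricted (RF.SAAR), high-fat control (HF.Ctrl) and high-fat restricted (HF.SAAR). SAAR stands for sulfur amino acid restriction. All 4 diets lacked cysteine, so the control mice shared that lack. The SAAR diets also had less methionine and more glutamic acid than the Ctrl diets. All mice were of 1 sex and strain, and no engineered allele is given for any group. Total estimated counts ran from 16203094 to 21230092 per mouse. All 10 genes passed the filter on low counts, and 15061 features entered the tests.

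Amino acid transporters move amino acids across the plasma membrane, and the liver takes up and releases them between the portal blood, the hepatocyte and the circulation. System A carriers and the system N carrier are driven by the sodium gradient, whereas a facilitated carrier such as the Slc43a1 product follows amino acid gradients. When amino acids run short, the kinase GCN2 favors translation of the transcription factor ATF4, and Slc3a2, Slc7a5, Slc7a1 and Slc38a2 are among the transporter genes known as its targets in cultured cells. The comparisons ask how these mRNAs differ between restricted and control mice on each level of fat, and between the levels of fat on each diet.

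The members differed widely in level. TPM, the deposited level per transcript length, summed here over a gene's transcripts, allows genes to be set side by side. Slc38a3, which encodes the glutamine and histidine carrier SNAT3, was the highest at 423 to 498 TPM as group means. Slc38a4, which encodes the system A carrier SNAT4 of liver, followed at 338 to 389 TPM. The ranges of these 2 genes over single mice overlapped, at 355 to 595 TPM and 257 to 455 TPM. Slc7a2, the cationic transporter CAT2 of hepatocytes, ranged from 44.1 to 82.7 TPM over the 12 mice. Slc38a2, the widespread system A carrier SNAT2, ranged from 18.4 to 61.0 TPM. Slc3a2, the heavy chain 4F2hc that carries light chains such as LAT1 to the cell surface, ranged from 15.4 to 44.7 TPM. These 3 neighbours in the order overlapped between mice.

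Slc6a9, the glycine transporter GlyT1, came next at 4.53 to 9.46 TPM. Slc43a1, the facilitated carrier LAT3 of leucine, methionine and other large neutral amino acids, was at 1.196 to 6.50 TPM and overlapped Slc6a9. The remaining 3 were low in every group: Slc7a5 (LAT1) at 0.512 to 1.94 TPM, Slc1a4 (ASCT1, which exchanges alanine, serine and cysteine) at 0.408 to 1.36 TPM and Slc7a1 (CAT1) at 0.183 to 0.754 TPM. Slc7a1 rested on 17.1 to 63.9 estimated counts in a mouse, so changes in it are measured with low precision. The plot of TPM by gene shows this order.

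**Figure D1:**
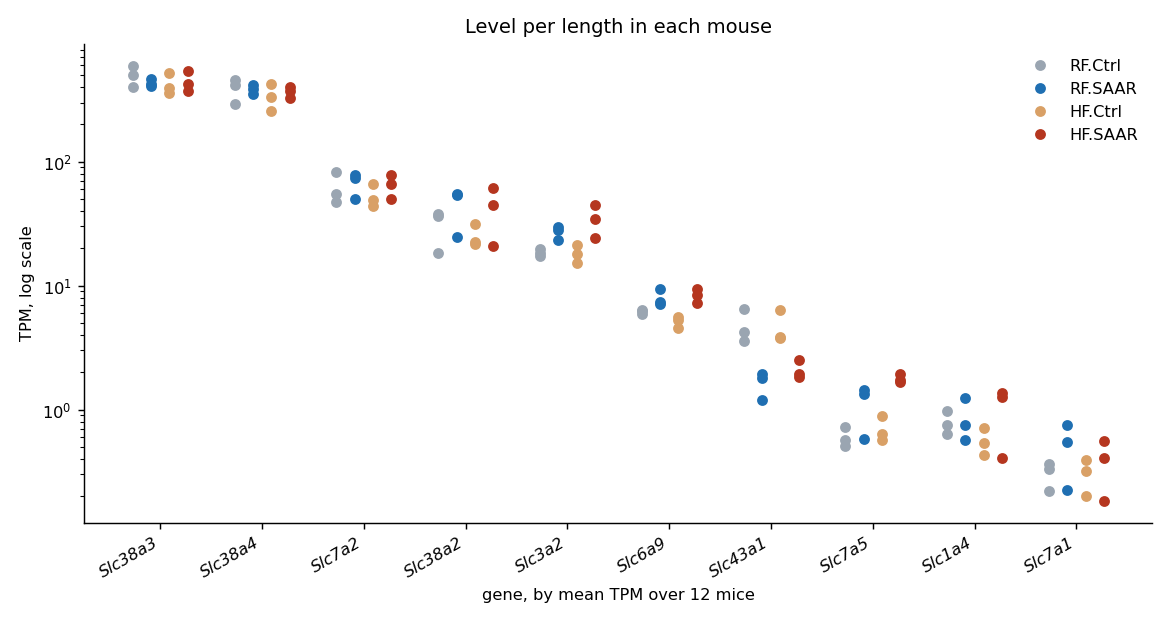
TPM of each of the 10 transporters (log axis) in each of the 12 mice, genes ordered by their mean over all mice and points colored by group. Slc38a3 and Slc38a4 lie at 257 TPM or more in every mouse, and Slc7a5, Slc1a4 and Slc7a1 lie at 1.94 TPM or less.

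Slc43a1 was lower in restricted mice on both levels of fat, and was the 1 member called in both comparisons. The gene lies on chromosome 2 from 84838850 to 84863594 on the plus strand (GRCm38). Its level as normalized CPM (counts scaled to a common library size after TMM scaling) was 7.19, 10.9 and 10.2 in the RF.Ctrl mice. In the RF.SAAR mice it was 1.95, 3.72 and 2.19. All 3 restricted mice lay below all 3 control mice. The log2 fold change was -1.84 (SE 0.24, edgeR adjusted p = 0.00234), or 0.279 times the control level.

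On high fat the same gene was at 10.9, 11.8 and 11.8 normalized CPM in HF.Ctrl mice. It was at 3.82, 5.01 and 4.33 in HF.SAAR mice. The groups again did not overlap. The log2 fold change was -1.39 (SE 0.23, edgeR adjusted p = 0.00678), or 0.382 times the control level. Averaged over both levels of fat it was -1.62 (SE 0.16, edgeR adjusted p = 8.4e-05). Behind these values stood 127 to 215 estimated counts per control mouse and 37 to 98 per restricted mouse.

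The response of Slc43a1 was not shown to differ between fat levels, since the interaction was 0.46 (SE 0.32, edgeR adjusted p = 0.999). Between restricted mice, every HF.SAAR value lay above every RF.SAAR value. That difference was 0.74 on the log2 scale (SE 0.24) and did not pass the test (edgeR adjusted p = 0.664). Between control mice the gene differed by 0.29 (SE 0.22), with groups that overlapped.

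Of the 6 transcripts of Slc43a1, Slc43a1-201 carried 59.6% of the gene's estimated counts. This transcript, of 2539 bases, was at 5.10, 7.41 and 5.13 normalized CPM in RF.Ctrl and at 1.49, 2.21 and 1.53 in RF.SAAR. On high fat it was at 5.38, 8.55 and 6.93 in HF.Ctrl and at 2.19, 2.38 and 1.65 in HF.SAAR. Its 2 log2 fold changes were alike, -1.75 (SE 0.28) on regular fat and -1.75 (SE 0.28) on high fat. In the fit over all transcripts the first missed the threshold (adjusted p = 0.0515) and the second passed it (adjusted p = 0.0332). The retained-intron transcript Slc43a1-205, with 12.4% of the counts, was also lower, by -2.03 averaged over both fat levels (SE 0.39, edgeR adjusted p = 0.0305). Slc43a1-204 held 13.7% of the counts and its average was -0.78 (SE 0.98). The division of reads among these transcripts is kallisto's estimate and varied between mice of a group.

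Red cell marker sums lay lower in restricted mice on regular fat, without a test of the difference. The summed level of 5 erythroid markers was 554 to 651 CPM in RF.Ctrl and 349 to 402 CPM in RF.SAAR, with none at 0. In normalized CPM, 9.67% of all tested features had every RF.SAAR mouse below every RF.Ctrl mouse. On high fat the sums overlapped, at 384 to 437 CPM in HF.Ctrl and 259 to 537 CPM in HF.SAAR. The part of red cells in the Slc43a1 result was not tested. In RNA from whole liver, fewer cells of a type and less RNA per cell cannot be told apart. Pancreatic acinar markers (34 genes) summed to over 1000 CPM in 5 libraries, namely RF.Ctrl mouse 1, HF.Ctrl mice 1 and 2 and HF.SAAR mice 2 and 3, with mice numbered by sample order. The highest was 21860 CPM, in HF.SAAR mouse 3, and the other 7 libraries held 49.2 to 108 CPM. Without those 5 libraries Slc43a1 was at -2.003 on regular fat (adjusted p = 0.0277) and at -1.64 on high fat, where 1 control and 1 restricted mouse remained, taken to vary like the other groups, and the call was lost (adjusted p = 0.315).

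**Figure D2:**
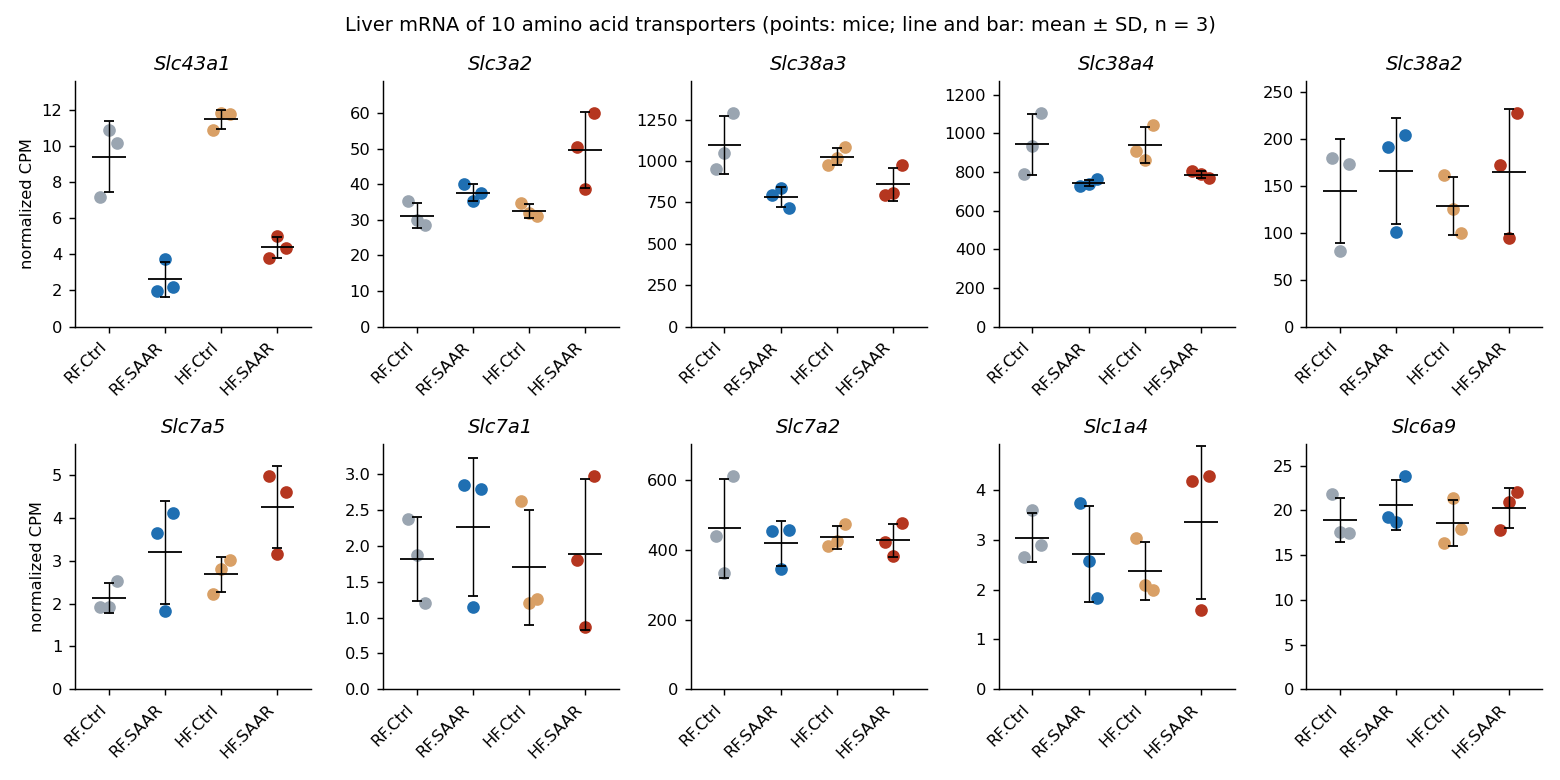
Normalized CPM (linear axes from 0) of each transporter in each mouse, with group mean and SD as line and bar (n = 3 per group). In the Slc43a1 panel the restricted mice lie at 1.95 to 5.01 and the control mice at 7.19 to 11.8, whereas in the Slc38a2, Slc7a1, Slc7a2, Slc1a4 and Slc6a9 panels the groups overlap.

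By the root mean square difference of centered log2 normalized CPM over the 12 mice, the tested genes most like Slc43a1 were Gm3839 (0.286), Hectd2 (0.380) and Nim1k (0.387). The same measure of Slc43a1 against a flat line was 0.889. Hectd2, a predicted ubiquitin ligase, was on average at 118 normalized CPM in control and 44.7 in restricted mice on regular fat, and at 128 and 70.7 on high fat. Likeness in 12 mice of the same 4 groups is a description, and nothing about control or function was tested. Slc43a2, which encodes LAT4, the closest relative of LAT3, was named after its values were seen. Its averaged log2 fold change was 0.09 (SE 0.11, edgeR adjusted p = 0.747).

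Slc3a2 was higher in restricted mice, with a call on high fat and on average over both fat levels. The gene lies on chromosome 19 from 8706882 to 8723369 on the minus strand (GRCm38). It was at 34.7, 31.8 and 31.1 normalized CPM in HF.Ctrl mice and at 50.3, 38.6 and 60.0 in HF.SAAR mice. Every restricted mouse lay above every control mouse, although the restricted mice were spread more widely than the others. The log2 fold change was 0.61 (SE 0.14, edgeR adjusted p = 0.0437), or 1.53 times the control level. On regular fat the values were 35.3, 29.9 and 28.5 in RF.Ctrl and 40.0, 35.2 and 37.6 in RF.SAAR. These groups touched at the highest control and the lowest restricted mouse, and the difference was 0.27 (SE 0.14, edgeR adjusted p = 0.458). In TPM, scaled to a fixed total in each library without TMM scaling, the RF.SAAR mice (23.12 to 29.96) lay above the RF.Ctrl mice (17.4 to 19.8). Scaled by library size alone, the median of all features was also higher in RF.SAAR, by 0.1645. Slc3a2 was called on regular fat in 0 of 23 alternatives. Averaged over both levels of fat, Slc3a2 differed by 0.44 (SE 0.10, edgeR adjusted p = 0.0185).

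The 2 responses of Slc3a2 were not shown to differ (interaction 0.34, SE 0.20, edgeR adjusted p = 0.999). The call on high fat was lost when any 1 of 10 of the 12 mice was left out, and held without RF.Ctrl mouse 1 or HF.SAAR mouse 2. Over these fits the log2 fold change ran from 0.45, without HF.SAAR mouse 3, to 0.75, with adjusted p from 0.0109 to 0.187. HF.SAAR mouse 3 had both the highest Slc3a2 and the highest acinar marker level, and without all 5 acinar-marked libraries the value was 0.68 (adjusted p = 0.315). The averaged call was lost without RF.Ctrl mouse 2 or 3 (adjusted p up to 0.0506). The transcript Slc3a2-201 held 86.5% of the gene's counts, and its average was 0.52 (SE 0.12, edgeR adjusted p = 0.0736 over transcripts).

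Slc7a5, the LAT1 light chain that pairs with the Slc3a2 product, did not pass the test, on low counts of 33 to 99 per mouse. It was at 1.93, 1.92 and 2.53 normalized CPM in RF.Ctrl and at 3.64, 1.84 and 4.12 in RF.SAAR. On high fat it was at 2.23, 2.80 and 3.01 in HF.Ctrl and at 4.98, 3.17 and 4.61 in HF.SAAR. RF.SAAR mouse 2 was lower than all control mice, whereas on high fat the groups did not overlap in these counts summed per gene. The log2 fold changes were 0.59 (SE 0.30, edgeR adjusted p = 0.439) on regular fat and 0.66 (SE 0.30, edgeR adjusted p = 0.372) on high fat. The average was 0.63 (SE 0.21, edgeR adjusted p = 0.104). The averaged Slc7a5 difference passed in 3 of 22 alternatives. These were 0.82 with offsets for effective length (adjusted p = 0.0419), 0.81 with scaling by library size alone (adjusted p = 0.0297) and 0.77 without RF.SAAR mouse 2 (adjusted p = 0.0251). Library size alone called 2288 features higher on average, against 474 in the main fit. A short retained-intron transcript, Slc7a5-202, was assigned 10.9% of the gene's counts in HF.SAAR mouse 2, 2.31% in HF.SAAR mouse 3 and 0 in the other mice, which raises the TPM of those 2 mice.

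The heavy chain was more abundant per length than its light chains together. Slc3a2 was 2.52 to 5.49 times the summed TPM of Slc7a5, Slc7a6, Slc7a7, Slc7a8, Slc7a10 and Slc7a11 in a mouse. The ratio overlapped between all 4 groups. Among these light chains Slc7a7, which encodes y+LAT1, a carrier of cationic and neutral amino acids, averaged 0.61 higher in restricted mice (SE 0.17, edgeR adjusted p = 0.0447).

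Slc38a3 and Slc38a4, the 2 most abundant members, were lower in restricted mice by small amounts. Slc38a3 lies on chromosome 9 from 107650634 to 107669530 on the minus strand. It was at 950, 1049 and 1290 normalized CPM in RF.Ctrl and at 797, 838 and 719 in RF.SAAR. On high fat it was at 978, 1021 and 1082 in HF.Ctrl and at 794, 810 and 975 in HF.SAAR. Both pairs of groups were apart, the second narrowly. The log2 fold changes were -0.48 (SE 0.12, edgeR adjusted p = 0.0725) and -0.26 (SE 0.12, edgeR adjusted p = 0.407). The average passed at -0.37 (SE 0.085, edgeR adjusted p = 0.0194), or 0.774 times the control level.

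Slc38a4 lies on chromosome 15 from 96994820 to 97055956 on the minus strand. It was at 791, 932 and 1105 normalized CPM in RF.Ctrl and at 729, 737 and 762 in RF.SAAR. On high fat it was at 910, 864 and 1043 in HF.Ctrl and at 803, 789 and 768 in HF.SAAR. The restricted mice lay close together and below all control mice on both levels of fat. The log2 fold changes were -0.34 (SE 0.11, edgeR adjusted p = 0.176) and -0.26 (SE 0.11, edgeR adjusted p = 0.366), and the average passed at -0.30 (SE 0.080, edgeR adjusted p = 0.0401).

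Both averaged calls depended on scaling between mice. Scaled by library size alone, Slc38a3 was at -0.20 (adjusted p = 0.168) and Slc38a4 at -0.13 (adjusted p = 0.369). That scaling moved the median of all features from -0.0040 to 0.167, so on it the typical gene was higher in restricted mice. Mean TPM is scaled to a fixed total in each library, without TMM scaling. For Slc38a3 it was 498 in RF.Ctrl and 431 in RF.SAAR, and 423 in HF.Ctrl and 446 in HF.SAAR. For Slc38a4 it was 389 in RF.Ctrl and 385.5 in RF.SAAR, and 338 in HF.Ctrl and 365 in HF.SAAR. On high fat both genes were thus lower in normalized CPM and higher in mean TPM in the restricted mice. The Slc38a4 call held in 2 of the 12 fits that leave out 1 mouse, those without RF.Ctrl mouse 1 or HF.Ctrl mouse 2. The Slc38a3 call was lost without RF.SAAR mouse 3 or HF.SAAR mouse 1. In DESeq2 Slc38a3 also passed on regular fat alone (adjusted p = 0.00940).

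Transcripts of these 2 genes were fitted apart, on kallisto's estimated division of reads among them. Slc38a4-205, of 3923 bases and 57.8% of the gene's counts, averaged -0.42 (SE 0.070, edgeR adjusted p = 0.0158 over transcripts). Slc38a4-201, of 3932 bases, was at 0, 0.0555 and 9.58 normalized CPM in HF.Ctrl and at 44.9, 25.4 and 43.3 in HF.SAAR. Whether reads were divided differently between these transcripts in restricted mice was not tested. Slc38a4-203 had 33.5% of the counts and averaged -0.32 (SE 0.11, edgeR adjusted p = 0.270). The minor transcripts had averages of the other sign that were not called. Slc38a4-202, with 2.18% of the counts, averaged 0.74 (SE 0.22, edgeR adjusted p = 0.165). Slc38a4-201, with 4.72%, averaged 1.79 (SE 0.76, edgeR adjusted p = 0.398). Slc38a4-204, with 1.8%, averaged 0.24 (SE 0.23, edgeR adjusted p = 0.823). Slc38a3-209, with 77.9% of the counts, averaged -0.35 (SE 0.089, edgeR adjusted p = 0.106).

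Slc38a2, the system A carrier known for its rise when cells lack amino acids, overlapped between all groups. It was at 180, 81.1 and 173 normalized CPM in RF.Ctrl and at 192, 101 and 205 in RF.SAAR. It was at 162, 125 and 99.8 in HF.Ctrl and at 173, 94.8 and 228 in HF.SAAR. Mouse 2 was the lowest of RF.Ctrl, RF.SAAR and HF.SAAR, well under the others in its group. The log2 fold changes were 0.20 (SE 0.41) and 0.36 (SE 0.41), and neither passed the test (edgeR adjusted p = 0.919 and 0.819).

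Slc7a1 and Slc7a2, the cationic amino acid transporters, gave no call. Slc7a2 was at 333 to 613 normalized CPM over the 12 mice, and its log2 fold changes were -0.14 (SE 0.19) on regular fat and -0.03 (SE 0.19) on high fat. Scaled by library size alone these turned to 0.03 and 0.15. Slc7a1 was at 0.869 to 2.98 normalized CPM, with differences of 0.32 (SE 0.48) and 0.16 (SE 0.49). On high fat the Slc7a1 difference turned to -0.03 with offsets for effective length.

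Slc1a4 and Slc6a9 gave no call either. Slc1a4 was at 1.58 to 4.29 normalized CPM and differed by -0.17 (SE 0.37) on regular fat and 0.50 (SE 0.37) on high fat. The 2 Slc1a4 transcripts cannot be read apart, because kallisto gave over 99% of the gene's counts to either one or the other in 11 of the 12 mice. Slc6a9 was at 16.3 to 23.9 normalized CPM and differed by 0.12 (SE 0.14) and 0.12 (SE 0.15). In TPM its restricted mice lay above its control mice on both levels of fat, at 7.06 to 9.39 against 5.88 to 6.34 on regular fat and at 7.27 to 9.46 against 4.53 to 5.55 on high fat. With offsets for effective length and scaling between mice the differences were 0.10 (adjusted p = 0.881) and 0.35 (adjusted p = 0.360).

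**Figure D3:**
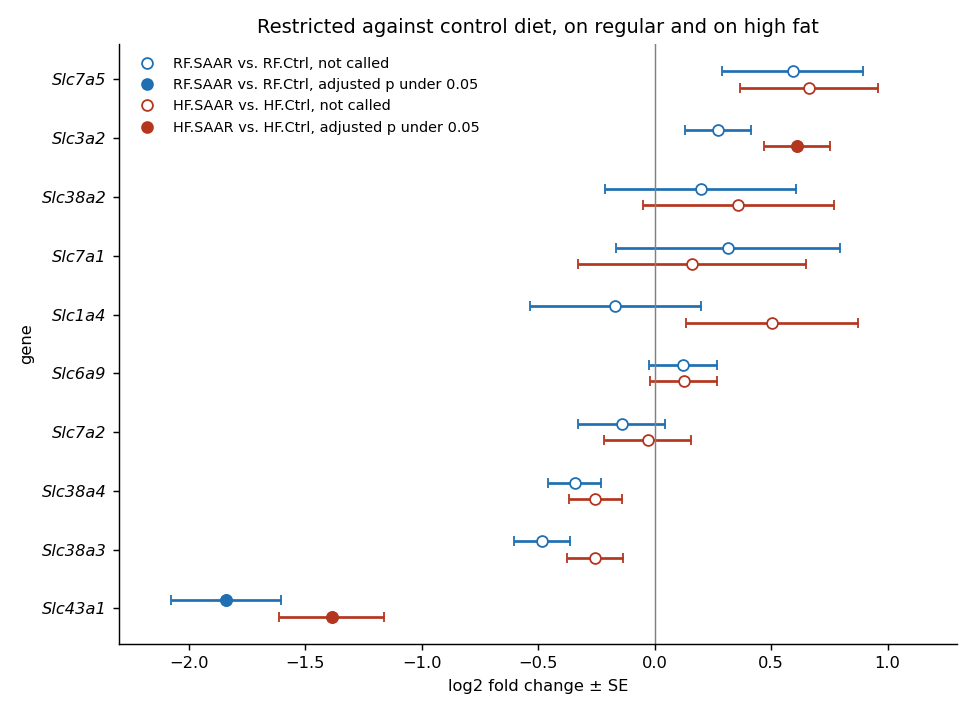
Log2 fold change with SE of each transporter for restricted against control mice on regular fat (blue) and high fat (red), filled where the edgeR adjusted p is under 0.05. Slc43a1 stands at -1.84 and -1.39, and the other 9 genes lie between -0.48 and 0.66.

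Counted over the 10 members, restriction on regular fat called 0 higher and 1 lower, beside 0.578% of all tested features called higher and 0.863% called lower. On high fat it called 1 higher and 1 lower, beside 0.956% and 0.949%. Averaged over both levels of fat it called 1 higher and 3 lower, beside 3.15% and 3.67%. The median log2 fold change of the members was -0.010 on regular fat, 0.14 on high fat and 0.15 on average, and that of all features was -0.0015, -0.0015 and -0.0040. On regular fat the restricted mice lay above all controls for 0 members and below them for 3, beside 8.51% and 9.67% of all tested features. On high fat they lay above for 2 (Slc3a2 and Slc7a5), beside 8.85%, and below for 3 (Slc43a1, Slc38a3 and Slc38a4), beside 8.98%.

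No member was called in the interaction of diet and fat by edgeR, where 0 had an unadjusted p under 0.05 and 0.00664% of all features (1 feature) were called. None was called between HF.SAAR and RF.SAAR by edgeR, where 0.0465% of all features were called. There 2 members, Slc43a1 and Slc3a2, had an unadjusted p under 0.05, beside 837 of all 15061 features. Slc43a1 and Slc38a4 were the 2 members whose HF.SAAR mice lay above the RF.SAAR mice, beside 5.47% of all features, and 0 members lay below, beside 4.71%. Between HF.Ctrl and RF.Ctrl edgeR called 0 members and 0% of all features, with 0 members and 552 features at an unadjusted p under 0.05. DESeq2 called 0 members in these 3 comparisons as well. The 2 largest member interactions were Slc1a4 at 0.67 (SE 0.52) and Slc43a1 at 0.46 (SE 0.32).

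The wider family was read from a list of 37 other plasma membrane transporters, of which 21 were tested. On regular fat 0 were called, with 4 at an unadjusted p under 0.05, beside 2014 of all 15061 features. On high fat 2 were called, both higher, beside 0.956% of all tested features called higher. Slc3a1, the heavy chain rBAT of the cystine and dibasic amino acid carrier, was at 32.3, 24.4 and 37.1 normalized CPM in HF.Ctrl and at 56.5, 73.6 and 45.9 in HF.SAAR. Its log2 fold change was 0.91 (SE 0.18, edgeR adjusted p = 0.0187). Slc6a13, the GABA and taurine transporter GAT2, was at 123, 113 and 120 in HF.Ctrl and at 164, 204 and 199 in HF.SAAR. It differed by 0.67 (SE 0.10, edgeR adjusted p = 0.00437).

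Averaged over both levels of fat, 4 of the 21 were called higher and 1 lower, beside 3.15% and 3.67% of all tested features. Beside Slc3a1 (0.72), Slc6a13 (0.45) and Slc7a7 (0.61), Slc16a10, the aromatic amino acid carrier TAT1, was higher by 0.34 (SE 0.092, edgeR adjusted p = 0.0408). Slc36a1, a proton-coupled carrier of small amino acids found at the plasma membrane and on lysosomes, was lower by -0.43 (SE 0.11, edgeR adjusted p = 0.0302). The median of the 21 was 0.12. Of 16 lysosomal and mitochondrial carriers 13 were tested, and edgeR called 0 in any comparison. On average 4 had an unadjusted p under 0.05, beside 3037 of all 15061 features.

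**Figure D4:**
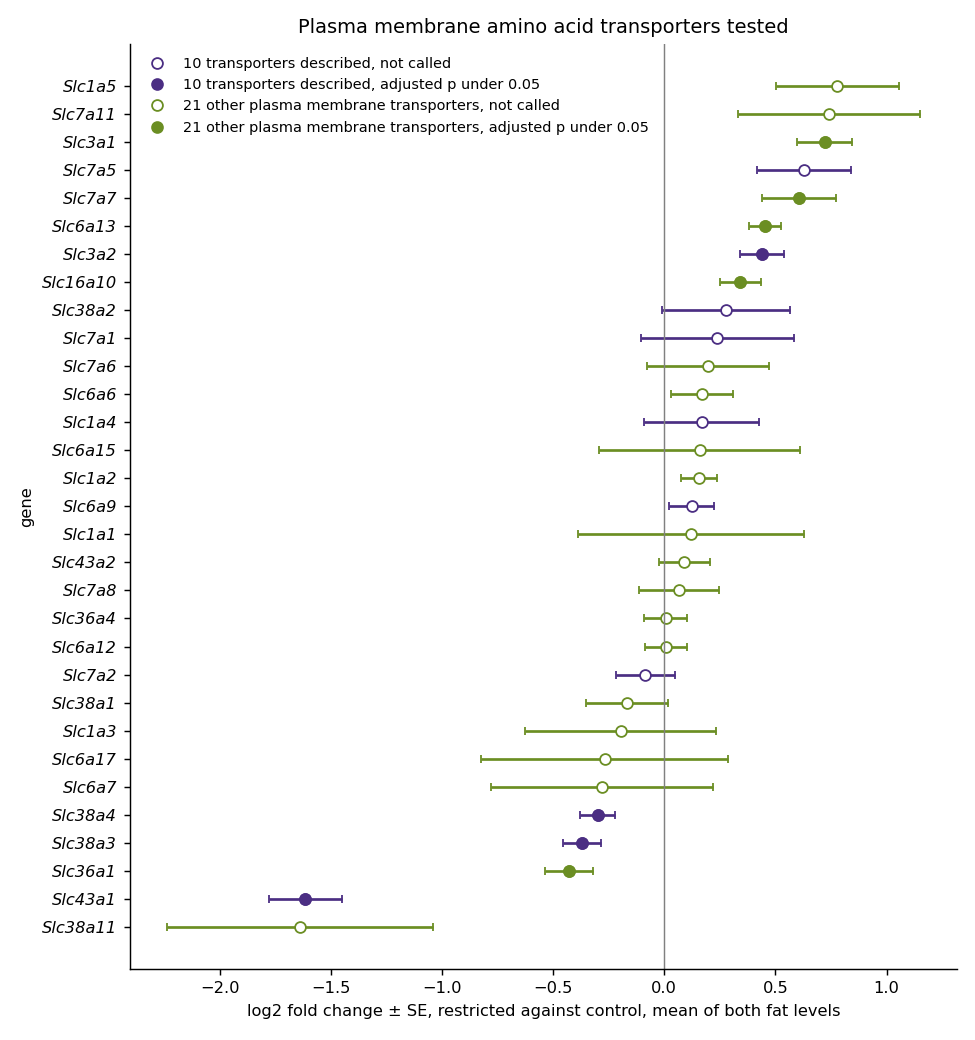
Log2 fold change with SE, restricted against control averaged over both fat levels, for the 10 transporters described (purple) and the 21 other plasma membrane transporters tested (green), filled where the edgeR adjusted p is under 0.05. The called genes run from Slc43a1 at -1.62 to Slc3a1 at 0.72; Slc38a11, at -1.64 with an SE of 0.60, was not called.

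Known ATF4 targets that are no transporters were read beside the members in the same mice. Of 14 such genes, all tested, 2 were called higher on regular fat and 6 on high fat, and 0 lower. Of all tested features 0.578% and 0.956% were called higher. Psat1, an enzyme of serine synthesis, was at 3.06, 1.21 and 4.57 normalized CPM in RF.Ctrl and at 18.1, 10.8 and 18.04 in RF.SAAR. It was at 1.89, 0.880 and 1.03 in HF.Ctrl and at 27.5, 18.1 and 29.2 in HF.SAAR, higher by 4.32 on the log2 scale (SE 0.46, edgeR adjusted p = 0.000858). Atf5, a transcription factor, differed by 0.88 (SE 0.13) on regular fat and 1.68 (SE 0.14) on high fat. The other 4 called on high fat were Asns (3.30), Phgdh (2.72), Mthfd2 (3.55) and Fgf21 (4.41). The median of the 14 was 0.49 on regular fat and 1.39 on high fat, as against -0.010 and 0.14 for the 10 transporters. Those 10 include members not named above as ATF4 targets. On regular fat the named targets Slc3a2, Slc7a5, Slc7a1 and Slc38a2 were at 0.27, 0.59, 0.32 and 0.20. On high fat they were at 0.61, 0.66, 0.16 and 0.36. Among these values only that of Slc3a2 on high fat was called. The list of 14 was written with earlier results of these mice known, so its direction is not independent evidence.

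Promoter windows from RefSeq (GRCm38.p6, 250 bases before to 50 after an annotated start) were found for 7 of the 10 members, 12 windows in all. Slc38a3, Slc7a2 and Slc7a5 had no window. They were searched for TGATGNAA, the core of the C/EBP-ATF response element, on both strands. The motif was in 3.97% of all 32851 windows and in 1 of the members' 12, that of Slc1a4, where it begins 4 bases before the start on the opposite strand. The window of Slc43a1, the gene with the largest change, and that of Slc1a4 are shown in the direction of transcription, with the match in capitals. A match is not a measured site. Bases outside these windows were not searched, so a window without a match does not show that a gene lacks the motif.
Slc43a1, chr2:84840073-84840372, plus strand: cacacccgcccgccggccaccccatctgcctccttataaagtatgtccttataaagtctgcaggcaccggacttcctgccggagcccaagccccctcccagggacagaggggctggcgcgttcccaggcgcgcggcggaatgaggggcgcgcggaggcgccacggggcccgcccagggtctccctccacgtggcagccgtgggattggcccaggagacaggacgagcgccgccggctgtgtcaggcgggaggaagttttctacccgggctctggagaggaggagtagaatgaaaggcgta
Slc1a4, chr11:20332664-20332963, minus strand: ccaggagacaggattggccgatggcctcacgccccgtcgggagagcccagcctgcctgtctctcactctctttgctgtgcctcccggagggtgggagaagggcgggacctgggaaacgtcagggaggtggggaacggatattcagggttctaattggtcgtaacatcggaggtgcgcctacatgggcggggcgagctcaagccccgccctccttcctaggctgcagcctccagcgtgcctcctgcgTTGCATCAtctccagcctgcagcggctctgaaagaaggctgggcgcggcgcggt

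The tissue label was checked with hepatocyte markers (9 of 10 found), which summed to 72350 to 94110 CPM in every library. All marker sums given here are CPM by library size alone, without TMM scaling. On that scale macrophage markers were at 322 to 412 CPM in HF.SAAR and 236 to 303 CPM in HF.Ctrl. Endothelial markers were at 267 to 281 CPM in RF.SAAR and 221 to 258 CPM in RF.Ctrl. The same scale put the median of all features 0.1645 higher in restricted mice on regular fat and 0.1753 higher on high fat. TMM factors were 1.035 to 1.111 in RF.SAAR and 0.9439 to 0.9811 in RF.Ctrl, so TMM scaling narrows the endothelial difference. No difference in these cells is read from the sums. The part of these cells in the values of Slc3a2 and the other members was not tested.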

How the data were processed

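Liver RNA of 12 mice, 3 per group, was sequenced from both ends after poly(A) selection. Per the labels and the study's methods, reads were checked with FastQC, trimmed with cutadapt and assigned by kallisto to the Ensembl mouse transcriptome. The deposited values per transcript were the estimated counts of kallisto, which shares reads that match several transcripts, with TPM and the effective length in bases, all made by the authors without normalization between mice, filter or pooling. The labels set fat level under the tag for diet and diet under the tag for fat, and the values themselves name the groups.

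Estimated counts were summed per gene with the GENCODE annotation of GRCm38 (116816 of 118489 transcripts matched) and rounded. The other 1673 transcripts, with 1.08% of counts, were kept as features of their own. Testing used R 4.3.3 and edgeR 4.0.16: TMM factors, filterByExpr by group (minimum count 10), robust glmQLFit over all 12 mice and glmQLFTest, with Benjamini-Hochberg adjustment over 15061 features (14670 genes) and a threshold of 0.05. In all, 6 comparisons were made. The SE is the log2 fold change divided by the square root of F. The scripts were tested on simulated counts. DESeq2 1.42.0, other scalings and filters, effective-length offsets, leaving out mice and acinar marker settings were alternatives. P-values rest on the variation among mice alone, and the labels do not give preparation days. Each of the 10 members was named, and of other lists the called genes (up to 6 per list). The members, lists and tests were chosen with earlier results of these data known, and lists were written from general knowledge. Whether reads were assigned by strand is not given in the sources used here, so overlapping genes cannot be told apart.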

Additional observations from a re-analysis of the deposited data

How the results depend on the processing

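On regular fat, 1 member was called; DESeq2 and the replicate block of 4 consecutive titles called 2, and the most abundant transcript 0. On high fat, where 2 were called, effective-length offsets, the compared groups alone, the acinar marker covariate and the most abundant transcript left 1, leaving out 1 mouse left 1 to 2, and leaving out the 5 acinar-marked libraries left 0. On average, where 4 were called, leaving out those libraries left 1, the most abundant transcript 2 and leaving out 1 mouse 2 to 4. The block was added after seeing the data, from the order of sample titles. The labels give no replicate numbers, so this block rests on title order and not on the design. With it Slc38a3 also passed on regular fat (edgeR adjusted p = 0.0352), and Slc38a2 was 0.212 (SE 0.27, adjusted p = 0.781) on regular and 0.244 (SE 0.27, adjusted p = 0.751) on high fat, with smaller SE than without it and no call. A fit of the compared groups alone has no value for the average or the interaction.

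In the comparisons of restricted with control mice on each fat level and in the interaction, signs turned as follows, all without a call. With library size alone Slc7a2 was 0.0302 on regular and 0.147 on high fat. The most abundant transcript gave 1.06 for Slc1a4 on regular and 0.00743 for Slc7a2 on high fat. Effective-length offsets gave -0.0334 for Slc7a1 on high fat. Without the acinar-marked libraries Slc6a9 was -0.0349 on high fat. In the interaction Slc7a2 was -0.00712 and Slc6a9 -0.269 without those libraries, and Slc6a9 was -0.115 with the covariate, -0.00353 with RLE and -0.00271 with DESeq2. Leaving out 1 mouse, Slc38a2 ran from -0.0886 to 0.456, Slc7a2 from -0.330 to 0.117 and Slc1a4 from -0.471 to 0.0494 on regular fat; Slc7a1 from -0.342 to 0.604 and Slc7a2 from -0.117 to 0.0369 on high fat; and in the interaction Slc38a2 from -0.144 to 0.447, Slc38a4 from -0.0455 to 0.200, Slc7a1 from -0.658 to 0.285, Slc7a2 from -0.149 to 0.300, Slc7a5 from -0.208 to 0.294 and Slc6a9 from -0.110 to 0.123. In the average the sign of Slc7a1 and Slc7a2 turned under some alternatives, that of Slc7a2 to 0.0885 with library size alone, and leaving out 1 mouse Slc7a1 ran from -0.0127 to 0.461 and Slc7a2 from -0.18 to 0.0421. In HF.SAAR against RF.SAAR 4 members turned sign under 1 alternative or more, and in HF.Ctrl against RF.Ctrl 7, with no call. The cause was not tested.

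Over all features, DESeq2 called 266 higher and 334 lower on regular fat, against 87 and 130, and 326 and 294 on high fat, against 144 and 143. Library size alone called 360 higher and 66 lower on regular fat, 702 and 83 on high fat and 2288 and 278 on average, against 474 and 553.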

Other observations

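Slc6a17 and Slc1a3, transporters of nervous tissue counted among the 21 others tested, were highest in mouse 1 of each group. Slc6a17 was at 3.17, 3.59, 3.38 and 2.86 normalized CPM in mouse 1 of the 2 regular-fat and then the 2 high-fat groups, control before restricted, and at 0.466 to 1.52 in the other 8. Slc1a3 was at 2.95, 3.01, 3.04 and 2.12 in the same 4 mice and at 0.663 to 2.07 in the other 8. For Slc1a3 the lowest of the 4 mice thus lay close to the highest of the other 8. These 4 mice have the 4 lowest sample titles, and the genes were named after their values were seen. Since each group holds 1 such mouse, the pattern does not run along the diets. Slc38a2, by contrast, was lowest in mouse 2 of 3 groups.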
